A study of Mus musculus with 8 samples.

Results

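The interferon-stimulated genes described here are 47 genes of type I interferon signaling and response, chosen by symbol from the 54532 genes of the deposited count table. The rule reads the symbol alone, and the list was drawn up with earlier results of these data known. They were measured by RNA-Seq in 4 EpCAM+ and 4 EpCAM- libraries of *Zeb1-/-* LSK cells, bone marrow cells that lack lineage markers and carry SCA-1 and C-KIT, a gate that holds hematopoietic stem and progenitor cells. All mice were C57BL/6, 8 to 12 weeks old, with 4 mice per genotype, and carried conditional *Zeb1 fl/fl* alleles and *Mx1-Cre*. *Zeb1* encodes a zinc finger repressor of transcription, and EpCAM is an epithelial adhesion molecule. RNA was extracted 14 days after the final injection of pIpC (polyinosinic-polycytidylic acid), a synthetic double-stranded RNA that induces interferon. Both fractions therefore shared the deletion, the Cre allele and the pIpC exposure, and differed in surface EpCAM. In this model Cre is driven by the promoter of *Mx1*, itself an interferon-stimulated gene, and deletion is not restricted to blood cells. No library from mice without pIpC or with intact *Zeb1* was analyzed here, so the values compare fractions and give no level before induction. The labels do not say whether the fractions with equal numbers came from the same mouse, so the p-values measure the spread between these libraries.

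Type I interferons bind a receptor made of IFNAR1 and IFNAR2, and the signal is carried to the nucleus by a complex that includes STAT2 and IRF9. This complex binds the interferon-stimulated response element in the promoters of its targets, which include sensors of viral nucleic acid, inhibitors of viral replication and regulators that sustain or end the response. In bone marrow, interferon and its inducer pIpC are known to bring dormant hematopoietic stem cells into cycle, and they raise surface SCA-1, one of the markers used in the LSK gate.

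The libraries held 15225714 to 17073546 counted reads in the EpCAM+ and 14114491 to 15929923 in the EpCAM- fraction. Levels are given as CPM, the read count of a gene relative to the library total after TMM scaling, which offsets differences in RNA composition. *Epcam* marked the sort, with 234, 161, 171 and 183 CPM in EpCAM+ libraries 1 to 4 and 8.99, 3.77, 1.43 and 1.25 CPM in EpCAM- libraries 1 to 4. *Zeb1* reads remained in both fractions (23.7, 14.8, 20.8 and 18.8 CPM in EpCAM+ libraries 1 to 4 and 13.4, 14.0, 10.7 and 9.49 CPM in EpCAM- libraries 1 to 4). They were higher in EpCAM+ cells without overlap (log2 fold change 0.72, SE 0.17, adjusted p = 0.00798, edgeR). This call was lost without EpCAM+ libraries 1 and 4 (log2 fold change 0.58, adjusted p = 0.0694, edgeR). A count over the whole gene does not read the deleted segment. Markers of LSK and hematopoietic stem cells were higher in EpCAM+ cells for 9 of 11 genes, among them *Hlf* (log2 fold change 1.91), *Mecom* (2.38) and *Procr* (2.36). Conventional dendritic cell markers were higher for 7 of the 8 tested of 9, among them *Xcr1* (7.59), *H2-Ab1* (4.53) and *Ciita* (4.29), and their summed level was highest in EpCAM+ libraries 1 and 4. Erythroid markers were lower in EpCAM+ cells for 5 of 6 genes. Neutrophil markers were lower for 2 of 7 tested genes (*Elane* and *Mpo*), near the 20.8% of all tested genes called lower, while the other 5 did not pass. Of the remaining lists, monocyte and mast cell markers were lower for 4 of 8 and 3 of 5 tested genes, plasma cell, B cell and T cell markers were higher for 2 of 4, 2 of 4 and 2 of 2, the 4 tested megakaryocyte markers did not pass (log2 fold changes -0.11 to 0.84), and no natural killer cell marker could be tested. For comparison with all these lists, 21.8% of all tested genes were called higher and 20.8% lower. In bulk RNA, fewer cells of a type and less RNA per cell cannot be told apart.

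Most of the interferon-stimulated genes were higher in EpCAM+ than in EpCAM- *Zeb1-/-* LSK cells. The difference held for 1 of the 2 receptor chains, all 4 transcription factors, all 5 nucleic acid sensors, all 6 protein modifiers and 8 of the 11 tested inhibitors of viral replication. It ranged from *Mx1*, a dynamin-like GTPase with a log2 fold change of 4.22, down to *Gbp3*, a guanylate-binding protein that was lower in EpCAM+ cells at -0.38. The value of *Mx1* rests on few reads, with 0 or 4 in each EpCAM- library. *Mx1* met the read filter only through its EpCAM+ libraries, so it could be called only higher. Of the 47 genes, 45 had enough reads to be tested, and 35 of these were higher and 1 lower at an adjusted p under 0.05 by edgeR's quasi-likelihood test, while 9 did not pass. Among all 13560 tested genes, 21.8% were called higher and 20.8% lower. Without EpCAM+ libraries 1 and 4, which carried most of the dendritic cell marker reads, 16 members were called higher, all of them among the 35, against 1819 of the 14043 genes tested in that fit (13%), and all 45 kept the direction of their fold change. The calls left by role were 0 receptor chains, 1 transcription factor (*Irf7*), 4 sensors, 1 protein modifier (*Trim30a*), 4 antiviral effectors, 3 GTPases, 1 surface protein (*Ifitm3*) and 2 other proteins.

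The median log2 fold change of the 45 genes was 0.70, and that of all tested genes was 0.02. A difference of more than 2-fold was called higher for 16 members, compared with 9.15% of all tested genes. In 30 members the lowest EpCAM+ library lay above the highest EpCAM- library, a pattern found in 20.1% of all tested genes. None had all EpCAM+ libraries below all EpCAM- libraries, which 20.0% of all tested genes did, and 15 overlapped. In 37 members the EpCAM+ library was the higher of the pair for all 4 replicate numbers, against 32.0% of all tested genes. With the replicate number as a block, 37 members were called higher (25.6% of all tested genes) and 1 lower (24.7%).

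**Figure D1:**
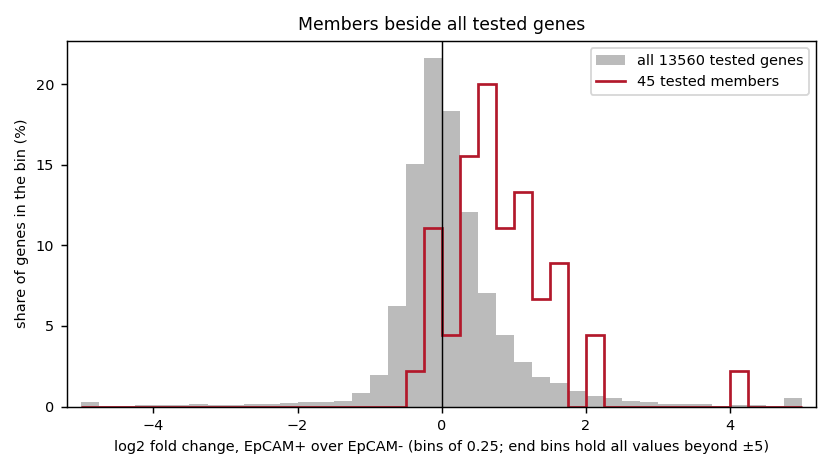
Share of genes (vertical axis, percent) by log2 fold change of EpCAM+ over EpCAM- cells (horizontal axis, bins of 0.25, end bins holding all values beyond 5 in size), for all 13560 tested genes in grey and the 45 tested interferon-stimulated genes as a red outline. The members center on 0.70 and all tested genes on 0.02.

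**Figure D2:**
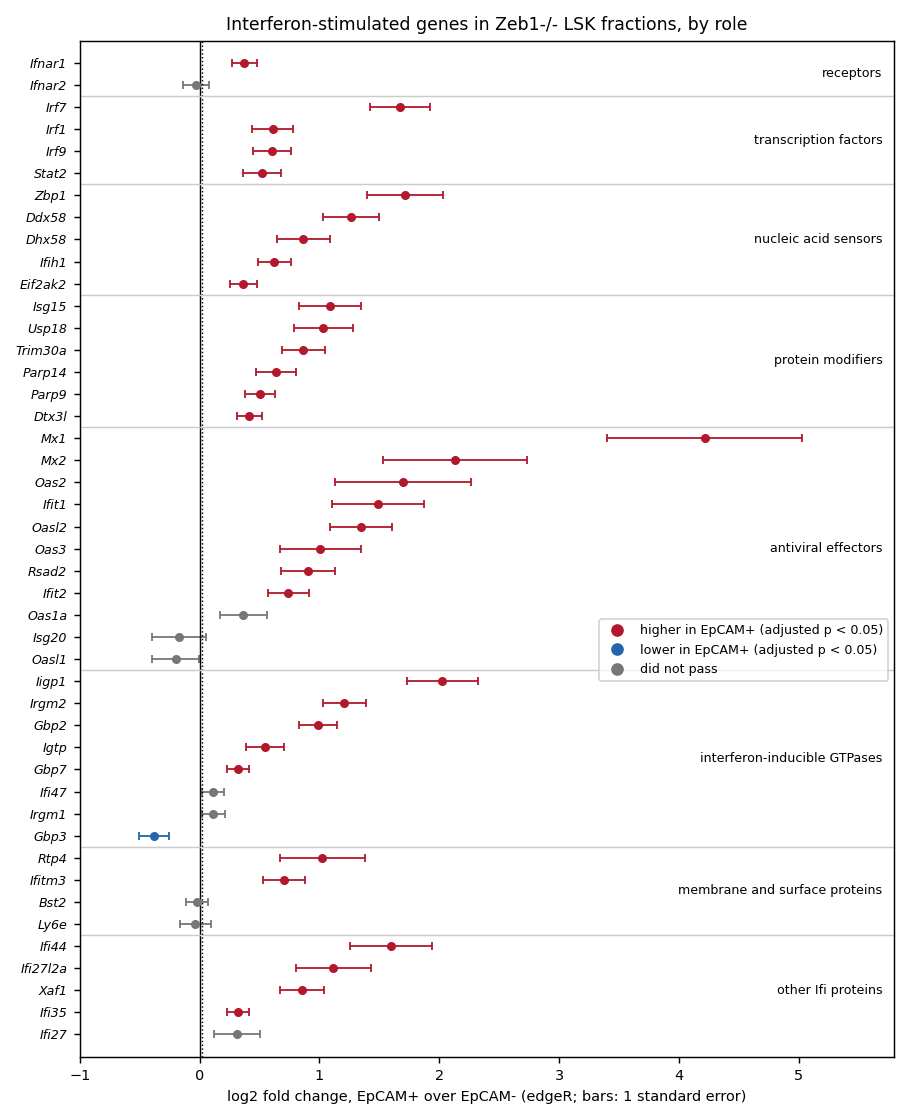
Log2 fold change of EpCAM+ over EpCAM- cells for the 45 tested members, grouped by role, with 1 standard error (edgeR, 4 libraries per fraction). Red marks the 35 members called higher, blue the 1 called lower and grey the 9 that did not pass. The dotted line is the median of all tested genes at 0.02.

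The receptor chains differed from each other. *Ifnar1* (chr16:91485238-91507441, GRCm38), the chain that binds the kinase TYK2, stood at 54.0, 47.3, 46.0 and 51.4 CPM in EpCAM+ libraries 1 to 4 and 43.4, 41.7, 35.7 and 32.5 CPM in EpCAM- libraries 1 to 4. The fractions did not overlap, and *Ifnar1* was higher in EpCAM+ cells (log2 fold change 0.37, SE 0.11, adjusted p = 0.0168). Its call was lost without EpCAM+ library 1 or without EpCAM- library 3, with log2 fold changes of 0.30 to 0.43 over the 8 fits that each left out 1 library. *Ifnar2* (chr16:91372783-91405589), the chain that binds the kinase JAK1, stood at 146, 125, 115 and 121 CPM in EpCAM+ libraries 1 to 4 and 142, 148, 111 and 116 CPM in EpCAM- libraries 1 to 4. The ranges overlapped almost fully, and no difference passed the test (log2 fold change -0.03, SE 0.11, adjusted p = 0.846).

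All 4 transcription factors were higher in EpCAM+ cells, with no overlap between fractions in any of them. *Irf7* (chr7:141262706-141266481), the factor that amplifies interferon production, stood at 46.9, 19.2, 23.8 and 34.4 CPM in EpCAM+ libraries 1 to 4 and 10.4, 10.5, 9.42 and 8.46 CPM in EpCAM- libraries 1 to 4. The EpCAM- libraries lay close together, the EpCAM+ libraries were spread widely with libraries 1 and 4 on top, and the means were 31.1 ± 12.4 CPM in EpCAM+ against 9.70 ± 0.966 CPM in EpCAM- cells (SD, n = 4 each). *Irf7* had the largest difference of the factors (log2 fold change 1.67, SE 0.25, adjusted p = 7.79e-04, edgeR), and a log2 fold change of 1.14 remained without EpCAM+ libraries 1 and 4 (adjusted p = 0.00255, with adjusted p = 3.07e-10 to 0.00433 over all alternatives run).

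*Irf9* (chr14:55603571-55610030), the DNA-binding subunit of the interferon complex, stood at 110.4, 70.9, 78.3 and 79.6 CPM in EpCAM+ libraries 1 to 4 and 70.8, 51.1, 55.1 and 45.7 CPM in EpCAM- libraries 1 to 4. EpCAM+ library 1 was the highest and EpCAM- library 1 lay just below the lowest EpCAM+ library, and the difference passed (log2 fold change 0.60, SE 0.16, adjusted p = 0.0127). *Stat2* (chr10:128270559-128292849), its partner, stood at 32.0, 21.7, 19.5 and 22.2 CPM in EpCAM+ libraries 1 to 4 and 19.2, 17.1, 15.4 and 14.8 CPM in EpCAM- libraries 1 to 4. EpCAM- library 1 lay just under EpCAM+ library 3, and *Stat2* was higher by 0.52 on the log2 scale (SE 0.16, adjusted p = 0.0243, edgeR). This call was lost without EpCAM+ library 1, EpCAM- library 3 or EpCAM- library 4 (log2 fold changes 0.34 to 0.61). *Irf1* (chr11:53770014-53778374), a factor that responds to both type I and type II interferon, stood at 192, 139.6, 146 and 145 CPM in EpCAM+ libraries 1 to 4 and 129, 116, 87.1 and 75.7 CPM in EpCAM- libraries 1 to 4. EpCAM+ library 1 stood apart from the other EpCAM+ libraries, and *Irf1* was higher in EpCAM+ cells (log2 fold change 0.61, SE 0.17, adjusted p = 0.0149), a call that was lost without EpCAM- library 3 (log2 fold changes 0.48 to 0.74). *Irf9* overlaps Rnf31 on the same strand and *Irf7* overlaps Phrf1 on the opposite strand. Strandedness is not given in the sources used here, so reads of these neighbors may be shared.

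All 5 nucleic acid sensors were higher in EpCAM+ cells, with a median log2 fold change of 0.86. *Ddx58* (chr4:40203773-40239828) encodes RIG-I, a helicase that recognizes short viral RNA, and stood at 43.7, 38.6, 39.0 and 30.2 CPM in EpCAM+ libraries 1 to 4 and 24.5, 15.4, 12.8 and 10.2 CPM in EpCAM- libraries 1 to 4. Every EpCAM+ library lay above every EpCAM- library, and the fold was 2.40 (log2 fold change 1.26, SE 0.23, adjusted p = 0.00215, edgeR). *Zbp1* (chr2:173206612-173218923), a sensor of Z-form nucleic acid linked to necroptosis, stood at 13.5, 6.07, 6.04 and 8.24 CPM in EpCAM+ libraries 1 to 4 and 3.75, 2.52, 2.12 and 1.84 CPM in EpCAM- libraries 1 to 4. EpCAM+ libraries 1 and 4 were highest, the fractions did not overlap, and *Zbp1* had the largest difference among the sensors (log2 fold change 1.71, SE 0.32, adjusted p = 0.00222). *Ifih1* (chr2:62595798-62646255) encodes MDA5, the helicase that recognizes long double-stranded RNA such as pIpC, and stood at 15.6, 15.5, 15.1 and 13.7 CPM in EpCAM+ libraries 1 to 4 and 11.8, 8.88, 10.2 and 8.02 CPM in EpCAM- libraries 1 to 4. The EpCAM+ libraries lay close together and above all EpCAM- libraries (log2 fold change 0.62, SE 0.14, adjusted p = 0.00535).

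*Dhx58*, which encodes the RIG-I-like regulator LGP2, was higher by 0.86 on the log2 scale without overlap (adjusted p = 0.0107). *Eif2ak2*, the double-stranded RNA-dependent kinase PKR that blocks translation, was higher by 0.37 (adjusted p = 0.028), and its fractions overlapped. The *Eif2ak2* call held in 3 of the 8 fits that left out 1 library: it was lost without EpCAM+ library 1, 3 or 4 and without EpCAM- library 2 or 3 (log2 fold changes 0.27 to 0.45).

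All 6 protein modifiers were higher in EpCAM+ cells. *Isg15* (chr4:156199424-156200818), a ubiquitin-like protein attached to other proteins during the response, stood at 11.7, 10.8, 7.60 and 9.86 CPM in EpCAM+ libraries 1 to 4 and 5.24, 6.66, 4.23 and 2.65 CPM in EpCAM- libraries 1 to 4. The fractions did not overlap (log2 fold change 1.09, SE 0.26, adjusted p = 0.00755). *Usp18* (chr6:121245906-121270917), the protease that removes ISG15 and dampens signaling at IFNAR2, stood at 27.7, 14.8, 17.8 and 22.3 CPM in EpCAM+ libraries 1 to 4 and 15.0, 8.07, 8.26 and 8.83 CPM in EpCAM- libraries 1 to 4. EpCAM- library 1 stood above the other EpCAM- libraries and above EpCAM+ library 2, so the fractions overlapped, and the difference passed (log2 fold change 1.03, SE 0.24, adjusted p = 0.00737, edgeR). *Trim30a* (chr7:104409025-104465193), a tripartite-motif protein known as a brake on Toll-like receptor signaling, stood at 92.2, 61.0, 75.0 and 72.6 CPM in EpCAM+ libraries 1 to 4 and 56.7, 39.5, 38.4 and 30.1 CPM in EpCAM- libraries 1 to 4. Its fractions did not overlap (log2 fold change 0.87, SE 0.18, adjusted p = 0.00415).

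The partners *Parp9* and *Dtx3l*, a mono-ADP-ribosyltransferase and a ubiquitin ligase that act as a complex, were higher by 0.50 and 0.41 on the log2 scale (adjusted p = 0.0103 and 0.00979, edgeR). *Parp14*, a further ADP-ribosyltransferase next to them on chromosome 16, was higher by 0.64 (adjusted p = 0.0111). *Parp9* and *Dtx3l* overlap on opposite strands, so their counts are not fully separate.

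Of the 13 antiviral effectors, 11 were tested, and 8 of these were higher in EpCAM+ cells while 3 did not pass. *Mx1* (chr16:97447035-97462907) had 77, 21, 19 and 55 reads in EpCAM+ libraries 1 to 4 and 4, 0, 4 and 0 in EpCAM- libraries 1 to 4. All EpCAM+ libraries lay above all EpCAM- libraries, with libraries 1 and 4 highest, and the EpCAM- fraction held 0 or 4 reads per library, so the size of the difference rests on few reads (log2 fold change 4.22, SE 0.81, adjusted p = 0.00267, edgeR). Without EpCAM+ libraries 1 and 4 the log2 fold change of *Mx1* was 2.96 (adjusted p = 0.0266, with adjusted p = 1.14e-06 to 0.0266 over all alternatives run). Its neighbor *Mx2* (chr16:97535308-97560900), annotated as a polymorphic pseudogene, had 44, 14, 25 and 16 reads in EpCAM+ libraries 1 to 4 and 11, 1, 6 and 2 in EpCAM- libraries 1 to 4. Its fractions did not overlap and it was higher by 2.13 on the log2 scale (adjusted p = 0.0169), a call lost without EpCAM+ library 1 (log2 fold changes 1.63 to 2.77). Both *Mx1* and *Mx2* met the read filter only through their EpCAM+ libraries, so their calls could go only 1 way. *Mx1* and *Mx2* are similar in sequence, and the treatment of reads that fit both is not given in the sources used here.

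*Oasl2* (chr5:114896936-114912234), a relative of the 2'-5' oligoadenylate synthetases, stood at 67.6, 59.3, 55.3 and 39.8 CPM in EpCAM+ libraries 1 to 4 and 33.9, 19.8, 20.6 and 12.9 CPM in EpCAM- libraries 1 to 4. The fractions did not overlap, and the means were 55.5 ± 11.6 CPM in EpCAM+ against 21.8 ± 8.79 CPM in EpCAM- cells (SD, n = 4 each; log2 fold change 1.34, SE 0.26, adjusted p = 0.00259, edgeR). Its neighbor *Oasl1* (chr5:114923240-114937915), known to restrain translation of *Irf7*, stood lower in the EpCAM+ library of all 4 numbered pairs but did not pass the test (log2 fold change -0.20, SE 0.20, adjusted p = 0.432).

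The synthetases themselves, which make the second messenger that activates RNase L, lie together on chromosome 5. *Oas2* was higher by 1.70 and *Oas3* by 1.01 on the log2 scale (adjusted p = 0.0338 and 0.0356, edgeR), both with overlap. Each call held in 2 of the 8 fits that left out 1 library and was lost without EpCAM+ library 1, 2 or 3 or EpCAM- library 2, 3 or 4 (log2 fold changes 1.35 to 2.40 for *Oas2* and 0.88 to 1.41 for *Oas3*). *Oas1a* did not pass (log2 fold change 0.37, adjusted p = 0.152) and did with the replicate number as a block (log2 fold change 0.40, adjusted p = 0.0109, with adjusted p = 0.0109 to 0.343 over all alternatives run). *Oas1a* has near-identical copies beside it, so its count is uncertain.

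The Ifit genes, RNA-binding inhibitors of translation, sit in a cluster on chromosome 19. *Ifit2* (chr19:34550694-34576419) stood at 21.0, 21.2, 20.6 and 27.0 CPM in EpCAM+ libraries 1 to 4 and 13.4, 10.3, 12.1 and 17.9 CPM in EpCAM- libraries 1 to 4. The fractions did not overlap, and library 4 was the highest of each (log2 fold change 0.74, SE 0.17, adjusted p = 0.00608, edgeR). *Ifit1*, which recognizes the cap of foreign RNA, was higher by 1.49 on the log2 scale (adjusted p = 0.0113) without overlap. The near-identical *Ifit3* and *Ifit3b* had too few reads to be tested. *Ifit3* had 23, 15, 15 and 8 reads in EpCAM+ libraries 1 to 4 and 10, 6, 9 and 3 in EpCAM- libraries 1 to 4. *Ifit3b* had 7, 3, 2 and 4 reads in EpCAM+ libraries 1 to 4 and 0, 0, 0 and 0 in EpCAM- libraries 1 to 4, and a count of 0 allows up to 3 reads per library, 0.187 to 0.222 CPM. Reads of this pair may be split between the copies.

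*Rsad2*, which encodes viperin, an inhibitor of viral RNA synthesis, was higher by 0.90 on the log2 scale (adjusted p = 0.00956) without overlap. *Isg20* (chr7:78913424-78920396), an exonuclease that degrades viral RNA, stood at 70.9, 48.8, 59.4 and 59.2 CPM in EpCAM+ libraries 1 to 4 and 54.4, 43.4, 70.1 and 101 CPM in EpCAM- libraries 1 to 4. The EpCAM- libraries spread more widely than the EpCAM+ libraries and enclosed all of them, and no difference passed (log2 fold change -0.17, SE 0.22, adjusted p = 0.558).

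The interferon-inducible GTPases, which act on membranes around intracellular pathogens, were divided, with 5 of 8 higher, 1 lower and 2 that did not pass. *Iigp1*, the immunity-related GTPase that attacks the vacuole of parasites, stood at 30.3, 20.3, 26.7 and 31.7 CPM in EpCAM+ libraries 1 to 4 and 9.36, 2.81, 6.14 and 8.31 CPM in EpCAM- libraries 1 to 4. The fractions were far apart, with means of 27.3 ± 5.10 CPM in EpCAM+ against 6.66 ± 2.89 CPM in EpCAM- cells (SD, n = 4 each), and *Iigp1* had the smallest adjusted p of the 47 genes (log2 fold change 2.03, SE 0.30, adjusted p = 7.07e-04, edgeR). *Irgm2* (chr11:58199618-58222782), a regulator of the other GTPases of its family, stood at 33.0, 25.8, 28.6 and 25.1 CPM in EpCAM+ libraries 1 to 4 and 16.2, 12.7, 11.2 and 8.53 CPM in EpCAM- libraries 1 to 4. Its fractions did not overlap (log2 fold change 1.21, SE 0.18, adjusted p = 7.49e-04). *Irgm1* (chr11:48861968-48871683), the related regulator known to protect hematopoietic stem cells during interferon exposure, stood at 141, 113, 124 and 111 CPM in EpCAM+ libraries 1 to 4 and 127, 103, 109 and 113 CPM in EpCAM- libraries 1 to 4. The fractions overlapped and no difference passed (log2 fold change 0.11, SE 0.10, adjusted p = 0.367).

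*Igtp*, a GTPase of the same family, was higher by 0.54 on the log2 scale (adjusted p = 0.0181), lost without EpCAM- library 2 or 3 (log2 fold changes 0.38 to 0.63). *Igtp* and *Irgm2* overlap on the same strand, so reads may be shared. *Ifi47*, a further member of the family, did not pass (log2 fold change 0.11, adjusted p = 0.345, edgeR).

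The guanylate-binding proteins among the members lie side by side on chromosome 3 and moved in different directions. *Gbp2* (chr3:142620602-142638008) stood at 56.2, 42.8, 48.2 and 41.8 CPM in EpCAM+ libraries 1 to 4 and 32.1, 21.4, 20.1 and 21.5 CPM in EpCAM- libraries 1 to 4. EpCAM- library 1 stood above the other EpCAM- libraries and below all EpCAM+ libraries (log2 fold change 0.99, SE 0.16, adjusted p = 0.00108, edgeR). *Gbp3* (chr3:142560026-142573209) stood at 37.6, 31.3, 30.0 and 35.0 CPM in EpCAM+ libraries 1 to 4 and 52.4, 45.8, 35.6 and 40.6 CPM in EpCAM- libraries 1 to 4. It was lower in the EpCAM+ library of all 4 numbered pairs, with EpCAM+ library 1 above EpCAM- library 3 (log2 fold change -0.38, SE 0.13, adjusted p = 0.0321). The *Gbp3* call was lost without EpCAM+ library 2, 3 or 4 or EpCAM- library 1 or 2 (log2 fold changes -0.48 to -0.29) and with scaling by upper quartile or by library totals (adjusted p = 0.0851 and 0.0832, with adjusted p = 0.0067 to 0.0869 over all alternatives run). *Gbp7* was higher by 0.32 on the log2 scale without overlap (adjusted p = 0.0172), lost without EpCAM+ library 3 or EpCAM- library 3 (log2 fold changes 0.27 to 0.40). These genes are similar in sequence, which leaves their separate counts uncertain.

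The sequences before the starts of *Irgm2*, *Gbp2* and *Gbp3* are printed because their windows hold the interferon-stimulated response element. Of the members with the element, up to 2 called higher and up to 2 called lower were taken by smallest adjusted p. *Irgm2* and *Gbp2* were higher, and *Gbp3* was the 1 called lower. They are the 250 bases before the RefSeq start (GRCm38.p6), read 5′ to 3′ on the plus strand, from chr11:58214727-58214976, chr3:142620413-142620662 and chr3:142559794-142560043. Capitals mark each match to GAAANNGAAA on either strand.
Irgm2: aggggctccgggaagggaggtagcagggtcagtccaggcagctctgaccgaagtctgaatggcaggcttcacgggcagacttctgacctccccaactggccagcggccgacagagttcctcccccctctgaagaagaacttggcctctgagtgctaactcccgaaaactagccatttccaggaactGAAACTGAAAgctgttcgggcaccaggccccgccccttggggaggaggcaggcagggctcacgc
Gbp2: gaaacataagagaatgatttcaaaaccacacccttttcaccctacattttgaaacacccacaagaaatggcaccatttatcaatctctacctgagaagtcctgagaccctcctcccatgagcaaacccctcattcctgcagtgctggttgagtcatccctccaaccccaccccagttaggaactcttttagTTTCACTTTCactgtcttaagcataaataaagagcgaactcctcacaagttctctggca
Gbp3: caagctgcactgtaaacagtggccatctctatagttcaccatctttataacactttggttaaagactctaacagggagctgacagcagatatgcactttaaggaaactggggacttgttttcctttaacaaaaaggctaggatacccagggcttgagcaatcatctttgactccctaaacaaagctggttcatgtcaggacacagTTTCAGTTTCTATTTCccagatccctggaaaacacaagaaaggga
The match began 64 bases before the start in *Irgm2* and 59 in *Gbp2*. *Gbp3*, which was lower in EpCAM+ cells, held 2 overlapping matches, the first beginning 45 bases before its start. RefSeq windows of 300 bases (250 before and 50 after a start) were found for 34 of the 47 members, and the element occurred in 20 of these 34 against 3.99% of 27025 genes with a window. It occurred in 14 of 24 members called higher, in 3 of 7 that did not pass, in the 1 called lower and in both untested members. The GAS element of type II interferon signaling (TTCNNNGAA, which reads alike on both strands) occurred in 13 of 34 members, 9 of 24 higher and 4 of 7 that did not pass, against 9.55% of all genes. A match is a description of letters in the window and not of a bound site.

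Of the 4 membrane and surface proteins, 2 were higher and 2 did not pass, and per length *Ifitm3*, *Ly6e* and *Bst2* had the highest levels of all members. *Ifitm3* (chr7:141009586-141010770), which blocks fusion of viruses with the cell, stood at 612, 878, 708 and 675 CPM in EpCAM+ libraries 1 to 4 and 454, 595, 345 and 369.7 CPM in EpCAM- libraries 1 to 4. All EpCAM+ libraries lay above all EpCAM- libraries (log2 fold change 0.70, SE 0.17, adjusted p = 0.00862, edgeR). *Rtp4* (chr16:23520291-23614222), a chaperone of receptors that restrains viral replication, stood at 74.7, 72.9, 57.3 and 35.7 CPM in EpCAM+ libraries 1 to 4 and 46.8, 36.8, 20.8 and 13.5 CPM in EpCAM- libraries 1 to 4. The fractions overlapped, since EpCAM+ library 4 fell below EpCAM- libraries 1 and 2, and the difference passed (log2 fold change 1.02, SE 0.35, adjusted p = 0.0382), but not with DESeq2 and not without EpCAM+ library 1, 2 or 3 or EpCAM- library 2, 3 or 4 (log2 fold changes 0.78 to 1.34). With the replicate number as a block, *Rtp4* had an adjusted p of 3.50e-04 (adjusted p = 3.50e-04 to 0.105 over all alternatives run). *Bst2* (chr8:71534255-71537456), the tetherin that holds virions at the cell surface, stood at 117, 104, 110.3 and 106 CPM in EpCAM+ libraries 1 to 4 and 107, 129, 113 and 96.1 CPM in EpCAM- libraries 1 to 4. The EpCAM+ libraries lay inside the range of the EpCAM- libraries, and no difference passed (log2 fold change -0.02, SE 0.09, adjusted p = 0.864). *Ly6e*, a relative of SCA-1, had levels from 2051 to 2772 CPM in EpCAM+ and 1957 to 2713 CPM in EpCAM- cells and did not pass either (log2 fold change -0.04, SE 0.13, adjusted p = 0.846).

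Of the other interferon-induced proteins, 4 of 5 were higher in EpCAM+ cells. *Xaf1* (chr11:72301629-72313733), an antagonist of an inhibitor of apoptosis, stood at 50.8, 47.6, 39.8 and 38.1 CPM in EpCAM+ libraries 1 to 4 and 30.7, 29.3, 20.0 and 17.4 CPM in EpCAM- libraries 1 to 4. The fractions did not overlap (log2 fold change 0.85, SE 0.18, adjusted p = 0.0044, edgeR). *Ifi44* (chr3:151730922-151749960), a cytoplasmic antiviral protein, stood at 20.1, 13.6, 17.2 and 11.0 CPM in EpCAM+ libraries 1 to 4 and 9.49, 3.33, 4.23 and 3.16 CPM in EpCAM- libraries 1 to 4. EpCAM- library 1 stood above the other EpCAM- libraries and below all EpCAM+ libraries (log2 fold change 1.60, SE 0.34, adjusted p = 0.00442). *Ifi27l2a* (chr12:103442167-103443680) stood at 9.74, 8.16, 6.76 and 8.82 CPM in EpCAM+ libraries 1 to 4 and 4.62, 6.22, 2.53 and 2.06 CPM in EpCAM- libraries 1 to 4. The fractions did not overlap (log2 fold change 1.12, SE 0.31, adjusted p = 0.0165). Its neighbor *Ifi27* (chr12:103434211-103440239) stood at 168, 192, 165 and 121 CPM in EpCAM+ libraries 1 to 4 and 142, 169, 121 and 87.1 CPM in EpCAM- libraries 1 to 4. The fractions overlapped and *Ifi27* did not pass (log2 fold change 0.31, SE 0.19, adjusted p = 0.213), although the EpCAM+ library was higher in all 4 numbered pairs, and it passed with the replicate number as a block (log2 fold change 0.33, adjusted p = 0.00401, with adjusted p = 0.00401 to 0.471 over all alternatives run). *Ifi35*, a leucine zipper protein, was higher by 0.32 on the log2 scale without overlap (adjusted p = 0.0196), lost without EpCAM+ library 1 or EpCAM- library 3 or 4 (log2 fold changes 0.23 to 0.36).

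**Figure D3:**
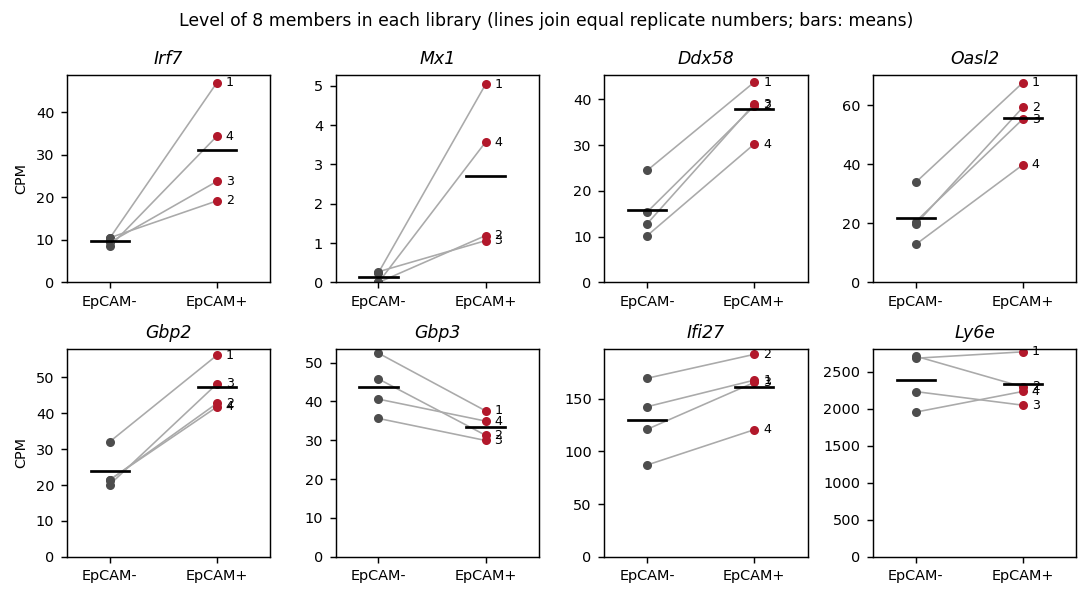
Level (CPM, from 0) of 8 members in the EpCAM- and EpCAM+ library of each replicate number. Points are libraries, grey lines join equal numbers and black bars are means of 4. *Irf7*, *Mx1*, *Ddx58*, *Oasl2* and *Gbp2* were higher and *Gbp3* lower in EpCAM+ cells, and *Ifi27* and *Ly6e* did not pass.

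The members that did not pass were mostly those with the highest levels. Compared per length (mean CPM per kilobase over the 8 libraries), levels ran from 0.257 for *Mx2* and 0.376 for *Mx1* to 626 for *Ly6e* and 855 for *Ifitm3*. Of the 13 members above percentile 75 of all tested genes by this measure, 5 were higher and 8 did not pass, with a median log2 fold change of 0.31. Of the 32 members below it, 30 were higher, 1 was lower and 1, *Oasl1*, did not pass, with a median of 0.94. Among all tested genes, 11.8% of those above percentile 75 and 25.2% of the rest were called higher, with medians of -0.18 and 0.12. Of the 3390 genes above percentile 75, 1595 did not pass and 1396 were lower. Of the 10170 below it, 6186 did not pass and 1422 were lower. The 8 abundant members that did not pass were *Ly6e*, *Bst2*, *Ifi27*, *Ifi47*, *Ifnar2*, *Isg20*, *Oas1a* and *Irgm1*. The split was made after the values were seen and was not tested.

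**Figure D4:**
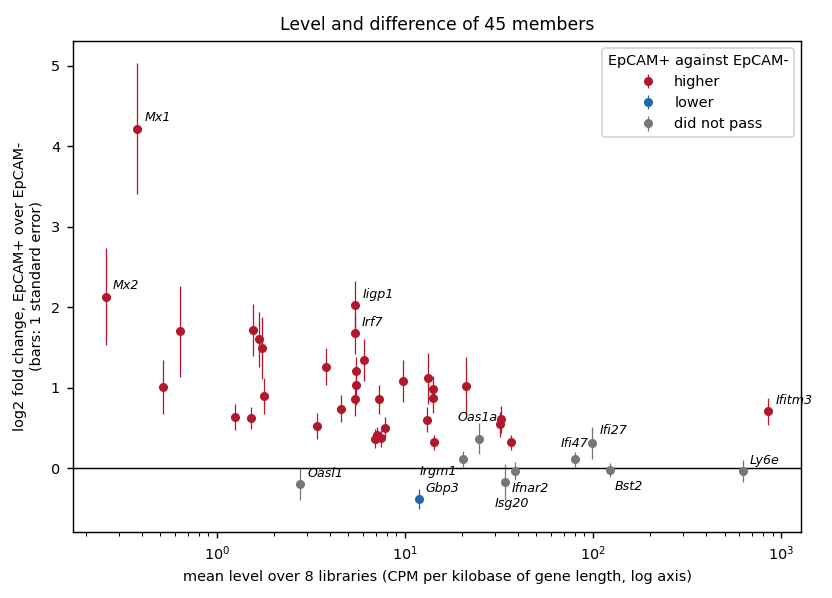
Log2 fold change of EpCAM+ over EpCAM- cells with 1 standard error (vertical axis) against the mean level over 8 libraries (horizontal log axis, CPM per kilobase of gene length) for the 45 tested members. The members that did not pass, in grey, lie mostly at the right, with *Oasl1* as the exception, while *Mx1* and *Mx2* lie at the far left.

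The members also varied together within each fraction. Library 1 was the highest of its fraction for 35 of 45 members in EpCAM+ and for 31 of 45 in EpCAM- cells, compared with 28.9% and 27.7% of all tested genes, and 27 members were highest in library 1 of both (12.5% of all tested genes). Relative to the EpCAM- mean of each gene, the median member stood at 0.95, 0.67, 0.65 and 0.51 on the log2 scale in EpCAM+ libraries 1 to 4 and at 0.31, 0.04, -0.10 and -0.26 in EpCAM- libraries 1 to 4. No EpCAM- library reached the lowest EpCAM+ library by this measure, and library 4 was the lowest of each fraction. Marker sums of other cells did not all follow library 1. Among the EpCAM+ libraries, the T cell, neutrophil and megakaryocyte sums were lowest in library 1, and the conventional dendritic cell sum was highest in library 4. The monocyte, plasma cell, B cell and plasmacytoid dendritic cell sums were highest in library 1. The summed level of the 6 plasma cell markers was 3958, 449, 668 and 384 CPM in EpCAM+ libraries 1 to 4 and 169 to 256 CPM in EpCAM- libraries. That of the 7 B cell markers was 124, 79.6, 75.6 and 86.8 CPM and 48.4 to 82.4 CPM, and that of the 8 plasmacytoid dendritic cell markers was 171, 112, 126 and 116 CPM and 80.0 to 116 CPM. In EpCAM- cells the plasma cell, B cell and plasmacytoid sums were each highest in library 2. Each of these lists had 4 tested genes, and of the plasmacytoid ones 2 were higher and 1 lower, so their sum does not stand for every marker. Without both libraries numbered 1, the same 35 members were called higher and 1 lower, against 18.8% and 19.0% of all genes tested in that fit.

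Among the EpCAM+ libraries, 12 of 45 members were highest in libraries 1 and 4, against 17.7% of all tested genes, among them *Irf7*, *Mx1*, *Zbp1* and *Usp18*. The summed level of the 9 conventional dendritic cell markers was 12324, 926, 3176 and 12784 CPM in EpCAM+ libraries 1 to 4 and 116 to 332 CPM in EpCAM- libraries. Of the 8 plasmacytoid dendritic cell markers, the cell type known for the highest interferon output, 4 were tested, 2 were higher (*Ly6d* and *Ccr9*) and 1 lower (*Cox6a2*), *Klk1* had no read in any library and *Siglech* reached 2.16 CPM in EpCAM+ and 0.312 CPM in EpCAM- cells. The 11 LSK and hematopoietic stem cell markers summed to 2869.5 to 3122 CPM in EpCAM+ and 1499 to 2303 CPM in EpCAM- cells, and the 8 neutrophil markers to 799.6 to 1356 and 9993 to 15767 CPM. Of the 7 tested neutrophil markers, 2 were lower (*Elane* and *Mpo*) and 5 did not pass, with a median log2 fold change of -0.28. The neutrophil sum therefore does not stand for every marker. The part of these cell types in the interferon-stimulated gene differences was not tested. Without EpCAM+ libraries 1 and 4, the members called higher included *Irf7*, *Mx1*, *Zbp1* (log2 fold change 1.23) and *Iigp1* (1.81), while *Usp18* was among the 19 whose call was lost (log2 fold change 0.69, adjusted p = 0.0798, edgeR), and the median log2 fold change of the members was 0.67.

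**Figure D5:**
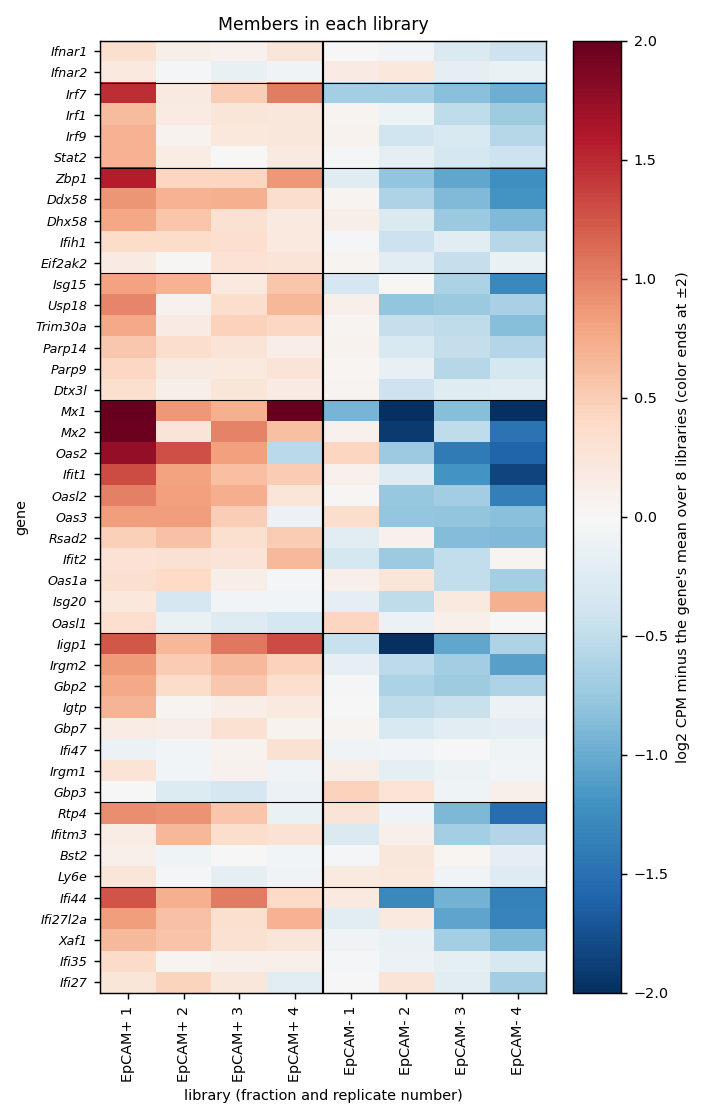
Level of the 45 tested members (rows, grouped by role) in the 8 libraries (columns), as log2 CPM minus the mean of the gene over all libraries, with color ending at 2 in size. EpCAM+ libraries are redder than EpCAM- libraries for most genes, and library 1 is the reddest of each fraction for most genes. Among those that do not follow are *Isg20*, *Oasl1*, *Gbp3*, *Bst2*, *Ly6e*, *Ifnar2* and *Ifi47*.

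Of 97 other genes of the interferon pathway, 70 were tested, of which 36 were higher, 4 lower and 30 did not pass. The shares among all tested genes were 21.8% higher and 20.8% lower. None of the 19 interferon genes could be tested. No read was counted for 14 of them in any library, and *Ifnz*, a mouse-specific type I interferon, had the most, 7, 2, 4 and 3 reads in EpCAM+ libraries 1 to 4 and 1, 1, 0 and 0 in EpCAM- libraries 1 to 4. *Ifnb1* had 1 read in each of EpCAM+ libraries 2 and 4, and *Ifng*, *Ifnl2* and *Ifnk* had at most 4 reads in a library. Interferon transcripts were therefore at or near the limit of detection in both fractions, where 0 reads allow up to 3, or 0.168 to 0.222 CPM.

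Of 16 genes of receptor signaling, 5 were higher and 1 lower, against 21.8% and 20.8% of all tested genes. With the replicate number as a block, 9 were higher, against 25.6% of all tested genes. The added genes were the receptor kinases *Jak1*, *Jak2* and *Tyk2* and the feedback inhibitor *Socs3* (adjusted p = 0.0117, 0.0184, 0.0201 and 0.00924, edgeR). *Irf2*, a factor that restrains the interferon response and preserves stem cell quiescence, stood at 74.5, 65.1, 77.5 and 76.3 CPM in EpCAM+ libraries 1 to 4 and 50.1, 37.7, 40.3 and 37.3 CPM in EpCAM- libraries 1 to 4. Its fractions did not overlap (log2 fold change 0.83, SE 0.11, adjusted p = 3.97e-04, edgeR). *Irf5*, a factor of myeloid and dendritic cells, ranged from 23.2 to 106 CPM in EpCAM+ and 8.74 to 19.3 CPM in EpCAM- cells, highest in EpCAM+ libraries 1 and 4 (log2 fold change 2.46, SE 0.46, adjusted p = 0.0023). *Socs1*, the feedback inhibitor of receptor kinases, was higher by 1.07 on the log2 scale (adjusted p = 0.00285). *Ifngr1*, a chain of the type II interferon receptor, was the 1 lower gene (log2 fold change -0.61, SE 0.21, adjusted p = 0.0368), lost without EpCAM+ library 2 or 3 or EpCAM- library 3 or 4 (log2 fold changes -0.79 to -0.47) and with upper-quartile scaling.

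Of 9 genes that sense pIpC and other nucleic acids or relay that signal, 2 were higher and 1 lower. The shares of all tested genes were 21.8% and 20.8%, so the count of higher genes lay near that of all genes. *Tlr3*, the endosomal receptor for double-stranded RNA, stood at 33.8, 3.06, 8.83 and 43.8 CPM in EpCAM+ libraries 1 to 4 and 0.375, 0.222, 0.478 and 0 CPM in EpCAM- libraries 1 to 4. It stood under 0.5 CPM in the EpCAM- libraries and was, like the dendritic cell markers, highest in EpCAM+ libraries 1 and 4 (log2 fold change 6.30, SE 0.98, adjusted p = 9.45e-04, edgeR). *Tlr3* met the read filter only through its EpCAM+ libraries, so it could be called only higher. *Mavs*, the mitochondrial adaptor of the RIG-I-like sensors, was lower by a log2 fold change of -0.33 (adjusted p = 0.0372), a call lost without EpCAM+ library 2, 3 or 4 or EpCAM- library 1 or 2 (log2 fold changes -0.41 to -0.26) and with upper-quartile scaling or library totals. *Tbk1*, the kinase that activates IRF3, was higher by 0.25 (adjusted p = 0.0417), lost without EpCAM+ library 1, 3 or 4 or EpCAM- library 2, 3 or 4 (log2 fold changes 0.17 to 0.28) and with DESeq2.

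Of 53 further interferon-stimulated genes, 45 were tested, with 29 higher, 2 lower and a median log2 fold change of 0.72. For all tested genes the values were 21.8% higher, 20.8% lower and a median of 0.02. The smallest adjusted p values were those of *Shisa5* (log2 fold change 1.48, SE 0.15, adjusted p = 1.80e-04, edgeR), *Uba7*, the activating enzyme for ISG15 (log2 fold change 0.92, SE 0.10, adjusted p = 2.23e-04), and *Samd9l*, a restrictor of translation in hematopoietic cells (log2 fold change 1.39, SE 0.17, adjusted p = 3.26e-04). *Shisa5* stood at 598, 416, 536 and 448 CPM in EpCAM+ libraries 1 to 4 and 229, 169.8, 169 and 149 CPM in EpCAM- libraries 1 to 4. Its lowest EpCAM+ library was above its highest EpCAM- library. The 2 lower genes, named after their values were seen, were *Lgals9*, a galectin (-0.57, adjusted p = 0.0155), and *Cmpk2*, the mitochondrial kinase adjacent to *Rsad2* (-0.47, adjusted p = 0.038). The *Cmpk2* call was lost without EpCAM+ library 2, 3 or 4 or EpCAM- library 1 or 4 (log2 fold changes -0.63 to -0.38) and with upper-quartile scaling or library totals. *Ly6a*, which encodes SCA-1 and is an interferon-stimulated gene that was also part of the sort, stood at 351, 195, 140.4 and 116 CPM in EpCAM+ libraries 1 to 4 and 71.7, 61.3, 16.4 and 15.7 CPM in EpCAM- libraries 1 to 4. Its fractions did not overlap (log2 fold change 2.28, SE 0.53, adjusted p = 0.00658), and both were gated as SCA-1-positive.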

How the data were processed

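RNA-Seq was performed on 4 *Zeb1-/-* EpCAM+ and 4 *Zeb1-/-* EpCAM- LSK samples, amplified with a SMART-Seq kit and sequenced as paired-end reads. Per the labels and the paper's methods, the authors removed low-quality reads, aligned the rest to GRCm38.p6 with STAR 2.6.1d, counted reads per gene with featureCounts 1.5.0-p3 and tested with DESeq2 1.20.0. The deposited table holds whole-number read counts per gene, which the authors did not normalize before deposit and which all values here use. Its FPKM columns were not used, nor were columns of fold change and p-value from comparisons run by the authors between fractions and between 4 pairs of libraries. Strandedness and the treatment of multimapping reads are not given in the sources used here.

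Genes were kept with edgeR's filterByExpr, scaled by TMM and tested with edgeR 4.0.16 (quasi-likelihood test, two-sided, Benjamini-Hochberg adjustment over 13560 genes, threshold 0.05) in R 4.3.3. The filter keeps a gene that has reads in a single fraction. A gene nearly absent from the other fraction could therefore be called only toward the fraction with reads. Standard errors were derived from the F statistic, and log2 CPM used a prior count of 2. Per-library precision follows depth, with members holding 16 to 293169 reads over the 8 libraries, and a floor of 3 reads covers counting error only. The procedure was tested on simulated data. Figures were drawn with matplotlib 3.10.9.

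The replicate numbers pair the samples by the data: libraries with equal numbers deviated together from their fraction means (correlation across genes 0.205 to 0.356 in 4 pairs, -0.216 to 0.0396 in the 12 other pairs). Over the 45 tested members alone these ranges overlapped (-0.333 to 0.639 and -0.674 to 0.460). What the numbers share is not stated, so the block is an alternative. Libraries of the same fraction differed far beyond counting noise in all 12 pairings (chi-square over its degrees of freedom 10.3 to 97.4).

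The members, roles, pathway and marker lists were chosen with earlier results of these data known. Values in every library are given for receptors, transcription factors and, per role, up to 3 higher members and up to 3 lower members with the smallest adjusted p and 1 that did not pass with the largest. Up to 3 genes were named per other list. Other members could be named at will, and *Ifngr1*, *Cmpk2*, *Lgals9*, *Ly6a*, *Phrf1*, *Rnf31*, *Jak1*, *Jak2*, *Tyk2*, *Socs3* and the ligands were named after their values were seen. 1 gene of the pathway list is counted but not reported here by itself. Sequences came from RefSeq (GRCm38.p6), and those of 1 chromosome were not used here.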

Additional observations from a re-analysis of the deposited data

Results flagged for a closer look

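In 124 groups of 4 libraries (62 genes in each fraction), 8 held a library whose distance from its nearest neighbor exceeded the critical value of Dixon's test, which chance gives in about 1 of 20 groups. Library 1 was the highest in 7 of these 8. In EpCAM+ library 1, *Irf1* stood at 191.62 CPM (next highest 146.03), *Ifi35* at 82.114 CPM (67.455) and *Tbk1* at 74.334 CPM (62.593). In EpCAM- library 1, *Usp18* stood at 15.043 CPM (8.8259), *Oas3* at 4.1821 CPM (1.8498), *Gbp2* at 32.083 CPM (21.476) and *Ifi44* at 9.4877 CPM (4.2316). In EpCAM+ library 4, *Ifit2* stood at 27.041 CPM (21.206). The causes were not tested.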

How the results depend on the processing

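With 4 libraries per fraction, the same 35 members were called higher with median-of-ratios and upper-quartile scaling and with library totals. DESeq2 also called 35 (47 members tested), of which 34 were shared, with *Ifit3b* in place of *Rtp4*. The count was 36 with every gene that had a read (47 members tested), 32 with at least 10 counts in every library (42 tested) and 25 to 35 over the fits that left out 1 library, the lowest without EpCAM- replicate 3. The filter of 10 counts in every library left out *Mx1*, *Mx2* and *Oas2*. Leaving out EpCAM+ libraries 1 and 4, an alternative chosen after seeing the data, gave 16 of the 35 members, 23 other pathway genes, and 1819 higher and 1856 lower of all genes, with 2 EpCAM+ libraries left. The 1 lower member became 0 with upper-quartile scaling and with library totals and 0 to 1 with 1 library left out. The 4 lower pathway genes became 1 with upper-quartile scaling, 2 with library totals and 1 to 4 with 1 library left out. Under these scalings the median of all genes was 0.11 and calls split into 3642 higher and 2083 lower (upper quartile) or 3476 and 2066 (totals) instead of 2961 and 2818. The cause of these shifts was not tested.

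Of the 9 members that did not pass, 4 changed sign. The log2 fold change of *Ifnar2* was 0.053 with upper-quartile scaling, 0.051 with library totals and -0.11 to 0.031 with 1 library left out. That of *Bst2* was 0.063 and 0.061 with these scalings, 0.0033 with at least 10 counts in every library and -0.092 to 0.049 with 1 library left out. That of *Ly6e* was 0.047 with upper-quartile scaling, 0.044 with library totals and -0.13 to 0.021 with 1 library left out, and that of *Isg20* was -0.34 to 0.083 with 1 library left out.

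With the replicate block, 37 members and 48 other pathway genes were called higher, and 1 and 4 lower, with 3465 higher and 3353 lower of all genes. The block added *Oas1a* and *Ifi27* and changed no other call among the members.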
